A study of Homo sapiens with 12 samples.

Results

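The Notch receptors NOTCH1, NOTCH2 and NOTCH3, the ligands JAG1, JAG2 and DLL1, the receptor modifier LFNG and the target genes HES1, HEY1 and NRARP were followed through 12 RNA-seq libraries of HMLE cells. These 10 genes were taken by symbol from 61533 gene entries, and all 10 had enough counts to be tested. HMLE cells are an immortal mammary epithelial line of human origin, made with telomerase and the SV40 early region. The CT83 line overexpressed CT83, a cancer/testis gene, the HORMAD1 line overexpressed HORMAD1, a meiotic chromosome axis gene, and the double line overexpressed both. The control line carried a control transgene. All 4 lines had been through puromycin selection, none had another treatment, and each gave 3 libraries. The study was set up to learn what CT83 and HORMAD1 do in these cells and whether they cooperate.

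The libraries held polyadenylated RNA with 9898845 to 14159740 rounded counts each. The transgene counts followed the labels. CT83 had 400 to 724 normalised CPM (counts brought to a common library size, with TMM scaling) in the CT83 line, 86.7 to 118 in the double line and 0 in the other lines. HORMAD1 had 203 to 335 normalised CPM in the HORMAD1 line, 283 to 347 in the double line and 0 in the other lines. All 5 basal and all 4 luminal epithelial markers were counted in each line. The summed levels were at most 1.42 CPM for 4 endothelial markers and at most 1.93 CPM for 4 immune markers. The 5 fibroblast markers summed to 10.8 to 25.1 CPM in the CT83 line, 6.56 to 25.6 in the HORMAD1 line, 15.3 to 66.0 in the double line and 17.4 to 45.3 in control, mostly COL1A1, with PDGFRA at 0 in the CT83 and HORMAD1 lines and LUM at 0 in the CT83 line, and their part in the results was not tested. In 3 libraries, CT83 replicate 3, HORMAD1 replicate 1 and control replicate 2, counts leaned most towards long transcripts. Their slopes were 0.0705, 0.0788 and 0.0397 log2 CPM per doubling of length over 12080 genes, against -0.0626 to 0.0039 in the other 9 libraries, 3 of which are the double line. Results were therefore also computed without these 3 libraries, a setting chosen after the data were seen. That setting left out only the highest slopes. It kept double replicate 1, whose slope of -0.0626 was larger in size than the 0.0397 of control replicate 2. Whether replicates came from separate cultures is not in the labels, so the p-values reflect library-to-library spread, possibly technical. Each construct was represented by 1 line, so a transgene's effect cannot be told apart from a difference between lines, and in bulk RNA fewer expressing cells cannot be told apart from less RNA per cell.

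Notch signalling passes between touching cells. A ligand of the Jagged or Delta-like family on one cell binds a Notch receptor on its neighbour, ADAM10 and then gamma-secretase cut the receptor, and the freed intracellular domain joins the DNA-binding protein RBPJ and a Mastermind coactivator to switch on targets such as HES1, HEY1 and NRARP. In the mammary epithelium the pathway is known for its part in the choice between luminal and basal fates.

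HES1, a transcriptional repressor of the helix-loop-helix class, had by far the highest level per length of transcript, 92.2 CPM per kilobase over the 12 libraries. NRARP, a small ankyrin-repeat protein that restrains Notch signalling, had 19.3 CPM per kilobase and JAG1 had 18.2. NOTCH2 was the receptor with the highest level, at 13.5 CPM per kilobase, against 2.80 for NOTCH1 and 2.13 for NOTCH3. JAG2 followed NOTCH2 at 6.12, LFNG had 3.68, DLL1 had 1.59 and HEY1 had 1.06 CPM per kilobase. The order was the same when the merged exon length replaced the longest transcript. Some neighbours in the order changed places between lines. NRARP exceeded JAG1 in the CT83, double and control lines but had 15.3 CPM per kilobase in the HORMAD1 line, where JAG1 had 16.1. NOTCH1 exceeded LFNG in the CT83 line only, at 3.91 and 3.61 CPM per kilobase. DLL1 and HEY1 rested on few reads, 37 to 82 counts and 18 to 42 counts per library.

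**Figure D1:**
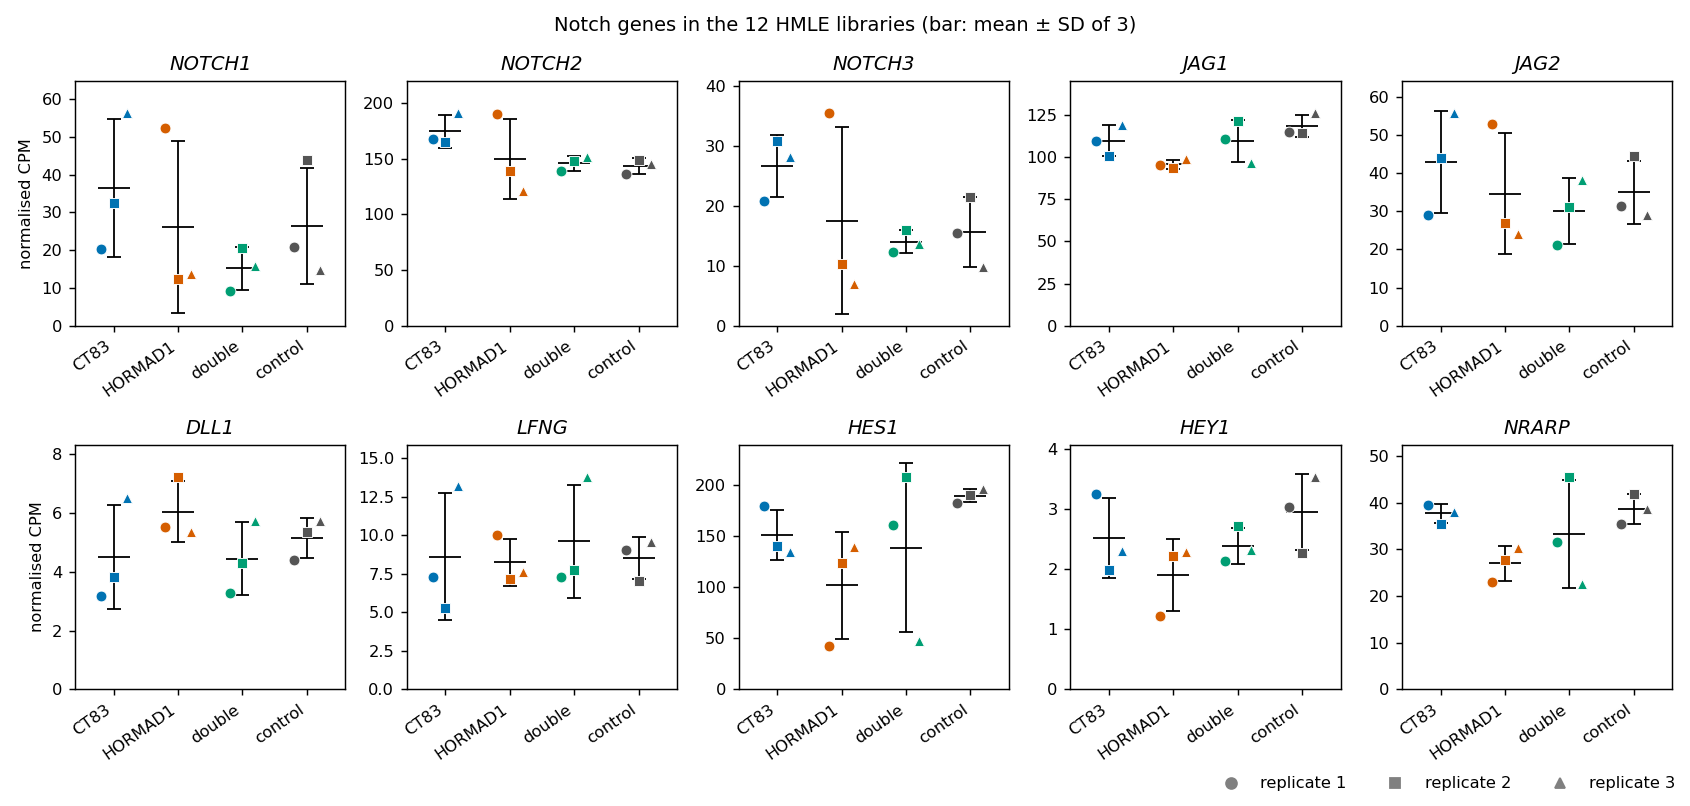
Normalised CPM (TMM-scaled) of each of the 10 Notch genes in the CT83, HORMAD1, double and control lines. Points are libraries, with shapes for replicates, and bars give the mean and SD of 3. HES1 lay at 42.4 CPM in HORMAD1 replicate 1 and 47.1 CPM in double replicate 3, and at 124 CPM or more in the other 10 libraries.

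No Notch gene passed the test across all genes in any comparison of lines. With edgeR's quasi-likelihood test and a Benjamini-Hochberg adjusted p under 0.05, 0 of the 10 were called in the CT83 line against control, where 0.0064% of 15616 genes were called, 0 in the HORMAD1 line (0.0064%) and 0 in the double line (0.0256%). DESeq2 and limma-voom also called 0 of the 10 in each. At an unadjusted edgeR p under 0.05 there was 1 Notch gene in the CT83 line, NOTCH2, against 2.74% of all genes. In the HORMAD1 line there were 3, JAG1, NRARP and HEY1, all with lower values, against 1.82% of all genes in either direction and 0.826% with lower values. The double line had 0, against 5.56% of all genes. The median log2 fold change of the 10 genes was -0.02 in the CT83 line, -0.02 in the HORMAD1 line and -0.21 in the double line, beside 0.01, 0.01 and -0.00 over all genes. These 3 comparisons share the control libraries. The HORMAD1 median depended on single libraries. It was -0.39 without HORMAD1 replicate 1, with 9 of the 10 genes below 0, but 0.07 without replicate 2 and 0.11 without replicate 3. Without the 3 long-transcript libraries it was -0.34. After a correction for transcript length and GC content the median was -0.11 in the CT83 line. It was then -0.05 in the HORMAD1 line and -0.08 in the double line.

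**Figure D2:**
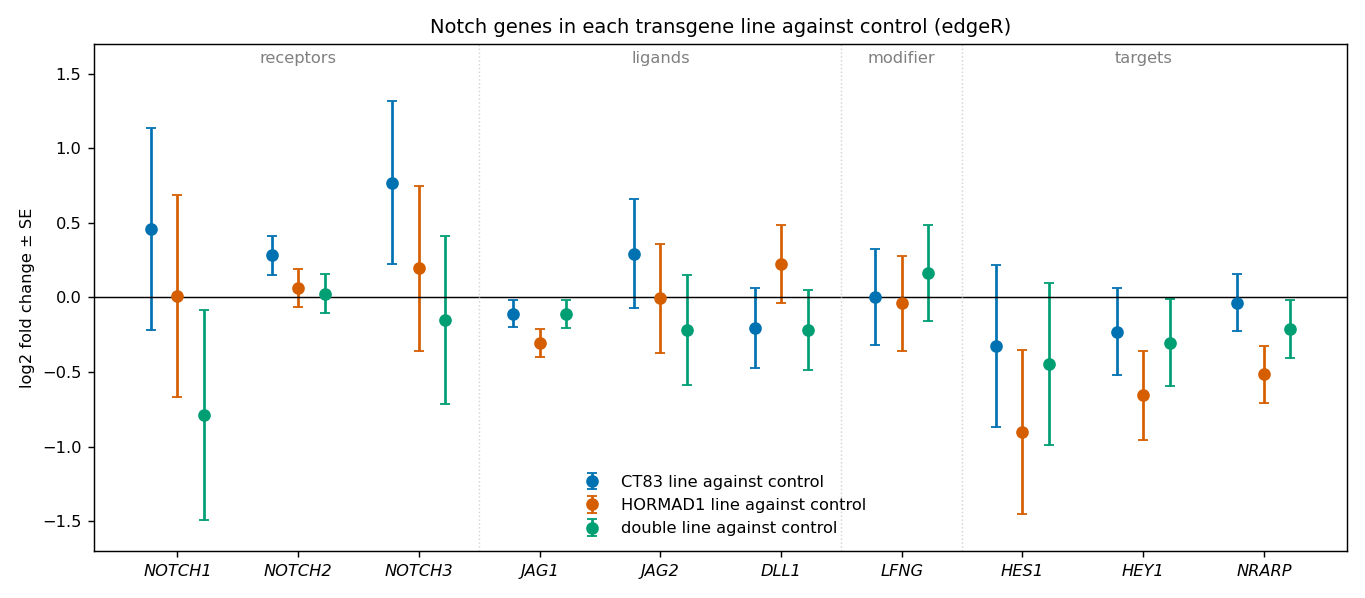
Log2 fold change of each Notch gene in the lines with CT83, HORMAD1 or both, relative to control, as points with SE, from the edgeR fit to 12 libraries. JAG1 had the narrowest errors, with an SE of 0.09, and NOTCH1 the widest, with an SE of 0.68 to 0.70.

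The receptor NOTCH2 (chromosome 1: 119911553 to 120069626, minus strand, GENCODE 29 on GRCh38) had 168, 165 and 191 normalised CPM in the CT83 line, 190.2, 139 and 121 in the HORMAD1 line, 139, 148 and 152 in the double line and 136, 149 and 145 in control. All 3 CT83 libraries lay above all 3 control libraries, as did the CT83 libraries of 4.73% of all genes. The log2 fold change was 0.28 (SE 0.13, edgeR adjusted p = 0.984), and it was 0.15 (SE 0.09, edgeR adjusted p = 0.966) after a correction for transcript length and GC content. In the double line NOTCH2 lay below all CT83 libraries (log2 fold change -0.26, SE 0.13, edgeR adjusted p = 0.585) and did not separate from control (0.03, SE 0.13). After the same correction the difference between the double and CT83 lines turned to 0.03. The near-identical copies NOTCH2NLA, NOTCH2NLB, NOTCH2NLC and NOTCH2NLR were listed with at most 1 count per library, so how their reads were shared with NOTCH2 is uncertain.

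NOTCH3 (chromosome 19: 15159038 to 15200981, minus strand) had 20.8, 30.8 and 28.1 CPM in the CT83 line, 35.5, 10.2 and 6.93 in the HORMAD1 line, 12.2, 16.0 and 13.7 in the double line and 15.5, 21.4 and 9.77 in control. The CT83 libraries were high throughout, but the lowest of them overlapped the highest control library, and the highest value of all was in HORMAD1 replicate 1. The log2 fold change in the CT83 line against control was 0.77 (SE 0.55, edgeR adjusted p = 0.984). Every double library lay below every CT83 library (-0.92, SE 0.56, edgeR adjusted p = 0.591), as NOTCH2 did, so 2 of the 10 Notch genes were lower without overlap there, beside 9.04% of all genes. NOTCH1 (chromosome 9: 136494433 to 136545786, minus strand) spread most of all, over a 6.05-fold range. It had 20.4, 32.4 and 56.3 CPM in the CT83 line, 52.5, 12.4 and 13.8 in the HORMAD1 line, 9.32, 20.6 and 15.9 in the double line and 20.8, 43.9 and 14.7 in control. No line separated from control, and the log2 fold change in the double line was -0.79 (SE 0.70, edgeR adjusted p = 0.913). That value was -0.22 without control replicate 2, -0.53 without double replicate 1 and -0.22 (SE 0.38) without the 3 long-transcript libraries. Without HORMAD1 replicate 1 the log2 fold change in the HORMAD1 line against control was -1.002 for NOTCH1, instead of 0.01 with it, and -0.86 for NOTCH3, instead of 0.19, with neither called.

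The NOTCH2 and NOTCH3 values gave the only calls among the 10 genes in any setting tried. Without the 3 long-transcript libraries, the lines with CT83 (CT83 and double) exceeded the lines without it (HORMAD1 and control) by a log2 difference of 0.20 for NOTCH2 (SE 0.05, edgeR adjusted p = 0.0246) and 0.87 for NOTCH3 (SE 0.18, edgeR adjusted p = 0.0263). In that setting 4.86% of 15667 genes were called, so 2 of 10 stand beside a large background. With all 12 libraries the same differences were 0.12 (SE 0.09, edgeR adjusted p = 0.977) and 0.21 (SE 0.39, edgeR adjusted p = 0.999), and 0 of the 10 genes and 0.032% of all genes were called, with 0 of the 10 and 6.21% of all genes at an unadjusted edgeR p under 0.05. After the length and GC correction of all 12 libraries they were 0.14 (SE 0.06, edgeR adjusted p = 0.692) for NOTCH2 and 0.32 (SE 0.24, edgeR adjusted p = 0.96) for NOTCH3. NOTCH2 alone then had an unadjusted edgeR p under 0.05, beside 6.65% of all genes. The 3 libraries left out include the highest NOTCH3 library of the HORMAD1 line, at 35.5 CPM beside 8.58 as the mean of the other 2, and the highest of control, at 21.4 beside 12.7. In the CT83 line the library left out had 28.1 CPM, beside 25.8. The NOTCH3 ranges of the remaining libraries still overlapped, because the double line had 12.2 to 16.0 CPM and control replicate 1 had 15.5. Without the 3 libraries, the double line alone exceeded control by 0.05 (SE 0.07) for NOTCH2 and 0.14 (SE 0.25) for NOTCH3. It exceeded the HORMAD1 line by 0.17 (SE 0.07) and 0.71 (SE 0.27). The CT83 line exceeded control by 0.24 (SE 0.08) and 1.02 (SE 0.26). The lines with HORMAD1 against those without it had -0.15 (SE 0.05) and -0.73 (SE 0.18). None of these differences was called. In the test for any difference among the 4 lines without these libraries, NOTCH2 (edgeR adjusted p = 0.0377) and NOTCH3 (edgeR adjusted p = 0.029) also passed, beside 3.82% of all genes.

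JAG1 (chromosome 20: 10637684 to 10673999, minus strand), the ligand with the highest level, was the steadiest of the 10 genes, with a 1.35-fold range over all libraries. It had 109, 101 and 119 CPM in the CT83 line, 94.9, 93.3 and 98.6 in the HORMAD1 line, 111, 121 and 96.2 in the double line and 115, 114 and 126 in control. The HORMAD1 libraries lay below every control and every CT83 library, and the lowest double library, 96.2 CPM, lay among them. HORMAD1 libraries averaged 95.6 ± 2.67 CPM and control libraries 118 ± 6.72 (SD, n = 3 each; two-sided exact permutation p = 0.1, the lowest value possible with 3 against 3). JAG1, HES1 and NRARP were the 3 of the 10 Notch genes that lay lower without overlap in the HORMAD1 line, beside 3.32% of all genes, and 0 lay higher, beside 4.25%. The log2 fold change of JAG1 in the HORMAD1 line was -0.31 (SE 0.09, edgeR adjusted p = 1). It stayed between -0.33 and -0.26 as each library was left out in turn, and was -0.31 (SE 0.11, edgeR adjusted p = 1) after the length and GC correction, still without overlap. Without the 3 long-transcript libraries it was -0.33 (SE 0.09, edgeR adjusted p = 0.611). The fold change in the double line was -0.11 (SE 0.09), and the interaction of the transgenes on the log2 scale was 0.30 (SE 0.13, edgeR adjusted p = 0.841). For that interaction edgeR called 0 of the 10 and 0% of all genes, with 703 genes (4.5%) and, of the 10, JAG1 alone at an unadjusted p under 0.05, while DESeq2 called 3 genes and limma-voom 0, with 0 Notch genes by either. An antisense gene shares 79 exon bases with JAG1 and the use of strand is not given, so its reads could not be separated.

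JAG2 (chromosome 14: 105140981 to 105168824, minus strand), the second Jagged ligand, had 29.1, 44.0 and 55.8 CPM in the CT83 line, 52.9, 26.9 and 24.1 in the HORMAD1 line, 21.1, 31.1 and 38.3 in the double line and 31.3, 44.5 and 29.2 in control. Every line overlapped control, and log2 fold changes ran from -0.22 to 0.29 with SEs near 0.37. JAG2 shares 469 exon bases with a processed transcript on its own strand, which leaves its exact level uncertain. DLL1 (chromosome 6: 170282206 to 170306565, minus strand), a Delta-like ligand, had 3.17, 3.80 and 6.50 CPM in the CT83 line, 5.53, 7.23 and 5.35 in the HORMAD1 line, 3.28, 4.30 and 5.74 in the double line and 4.40, 5.33 and 5.73 in control. LFNG (chromosome 7: 2512529 to 2529177, plus strand), a glycosyltransferase that modifies Notch receptors and shifts which ligands they answer, had 7.29, 5.27 and 13.2 CPM in the CT83 line, 9.98, 7.14 and 7.64 in the HORMAD1 line, 7.28, 7.72 and 13.8 in the double line and 9.02, 6.99 and 9.52 in control. No pair of lines tested separated without overlap for JAG2, DLL1 or LFNG. None of their differences reached an unadjusted edgeR p under 0.05 in the fit to all 12 libraries. Without the 3 long-transcript libraries, DLL1 or LFNG reached it in some comparisons, with none called. DLL1 had -0.52 (SE 0.18) in the lines with CT83 against those without, beside 19.2% of all genes under that p. LFNG had 0.92 (SE 0.36) in the interaction of the transgenes, beside 6.61%.

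HES1 (chromosome 3: 194136145 to 194138732, plus strand) and NRARP (chromosome 9: 137300482 to 137302251, minus strand) were low together in the same libraries, and both lay lower in the HORMAD1 line than in control. Their promoters are shown because these targets varied together. The windows are the 250 bases before each RefSeq start on GRCh38.p14, 5' to 3' on the gene's strand, with matches to TGGGAA, the core of the RBPJ recognition sequence, in capitals.
HES1 chr3:194135898-194136147 (+): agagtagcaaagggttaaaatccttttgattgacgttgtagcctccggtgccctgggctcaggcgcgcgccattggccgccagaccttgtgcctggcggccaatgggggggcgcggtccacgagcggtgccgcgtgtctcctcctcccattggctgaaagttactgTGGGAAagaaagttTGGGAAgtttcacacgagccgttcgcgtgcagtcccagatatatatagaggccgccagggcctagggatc
NRARP chr9:137302272-137302521 (-): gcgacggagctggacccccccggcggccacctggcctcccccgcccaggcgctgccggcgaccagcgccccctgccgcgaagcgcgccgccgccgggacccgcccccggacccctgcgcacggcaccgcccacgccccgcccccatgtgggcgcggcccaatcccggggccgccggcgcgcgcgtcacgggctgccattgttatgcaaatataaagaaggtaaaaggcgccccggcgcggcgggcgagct
HES1 held 2 matches on its own strand, which start 84 and 70 bases upstream of the RefSeq start. TGGGAA was searched on both strands, and matches did not overlap. Of 35116 promoter windows of this length, 20.8% held at least 1 match and 2.9% at least 2. NRARP held 0 matches, as did the windows of NOTCH1, NOTCH2, NOTCH3, JAG1 and JAG2, while 1 of the windows of LFNG held 1. Windows were at hand for 8 of the 10 genes, so DLL1 and HEY1 were not searched. These matches describe the letters of the windows only.

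HES1 had 179, 140.3 and 134 CPM in the CT83 line, 42.4, 124 and 139.8 in the HORMAD1 line, 160.9, 208 and 47.1 in the double line and 183, 190.2 and 196 in control. The control libraries lay close together, and 2 libraries of other lines, HORMAD1 replicate 1 and double replicate 3, had less HES1 than any of the other 10. HES1 averaged 151 ± 24.6 CPM in the CT83 line, 102 ± 52.2 in the HORMAD1 line, 139 ± 82.9 in the double line and 189.8 ± 6.72 in control (SD, n = 3 each). Every CT83 and every HORMAD1 library lay below every control library, beside 5.73% and 3.32% of all genes for these lines. The log2 fold change was -0.33 (SE 0.54, edgeR adjusted p = 0.984) in the CT83 line, -0.90 (SE 0.55, edgeR adjusted p = 1) in the HORMAD1 line and -0.45 (SE 0.54, edgeR adjusted p = 0.925) in the double line. Without HORMAD1 replicate 1 it was -0.52 in the HORMAD1 line, and without double replicate 3 it was -0.04 in the double line. The within-line SD of HES1, 0.75 on the log2 scale, was larger than that of all 1000 genes nearest to it in level, and it was 0.70 after the length and GC correction.

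NRARP had 39.6, 35.4 and 38.1 CPM in the CT83 line, 23.0, 27.8 and 30.4 in the HORMAD1 line, 31.6, 45.6 and 22.7 in the double line and 35.5, 41.8 and 38.6 in control. The lowest 2 libraries were the same as for HES1, and the double line spanned the whole range of the gene. NRARP averaged 27.0 ± 3.74 CPM in the HORMAD1 line and 38.6 ± 3.15 in control (SD, n = 3 each; two-sided exact permutation p = 0.1). The log2 fold change was -0.52 (SE 0.19, edgeR adjusted p = 1), -0.45 (SE 0.20) after the length and GC correction and -0.35 (SE 0.29, edgeR adjusted p = 0.97) without the 3 long-transcript libraries, where it no longer had an unadjusted edgeR p under 0.05. Taking the HORMAD1 and double lines against the CT83 and control lines, it was -0.35 (SE 0.14, edgeR adjusted p = 0.899) for NRARP and -0.16 (SE 0.07, edgeR adjusted p = 0.899) for JAG1, the 2 Notch genes with an unadjusted edgeR p under 0.05 there, beside 3.73% of all genes, 2.06% with lower values. After the length and GC correction these values were -0.23 (SE 0.14) and -0.08 (SE 0.08), and neither kept an unadjusted edgeR p under 0.05. Without double replicate 3 the value for NRARP was -0.24, and it was -0.26 (SE 0.20) without the 3 long-transcript libraries. Of the 10 genes, 8 had a lower fitted mean in that comparison, with a median of -0.30 beside 0.00 over all genes. After the correction 7 were lower, with a median of -0.15 beside 0.01. Without it, 0 of the 10 and 0.0064% of all genes were called. HEY1, a helix-loop-helix repressor related to HES1, had 3.26, 1.99 and 2.30 CPM in the CT83 line, 1.21, 2.22 and 2.28 in the HORMAD1 line, 2.13, 2.72 and 2.32 in the double line and 3.03, 2.27 and 3.54 in control. Its HORMAD1 libraries overlapped control by a narrow margin, 2.28 against 2.27 CPM, and the log2 fold change was -0.66 (SE 0.30, edgeR adjusted p = 1), or -0.39 without HORMAD1 replicate 1.

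**Figure D3:**
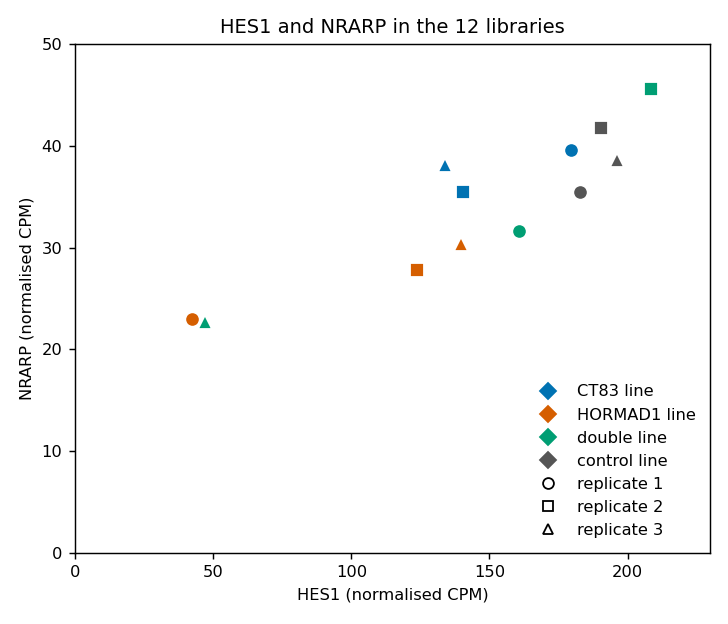
NRARP against HES1 in normalised CPM for the 12 libraries, with colours for lines and shapes for replicates. HORMAD1 replicate 1 and double replicate 3 lie apart at the low end, with 42.4 and 47.1 CPM of HES1 and 23.0 and 22.7 CPM of NRARP.

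The Notch genes varied within lines in different ways. Each library's deviation from its line's mean was compared between genes and with the library's length trend, in 55 relations over 12 libraries, with exact two-sided permutation within lines and Benjamini-Hochberg adjustment over the 55. HES1 and NRARP had r = 0.87 (permutation p = 0.00386, adjusted p = 0.0371) and rho = 0.78 (permutation p = 0.017, adjusted p = 0.117), and r = 0.75 without the 2 libraries farthest from the median of HES1. The pair does not stand alone, since 4 other gene pairs had the same adjusted p of 0.0371 for r by permutation: NOTCH1 and JAG2 (r = 0.93, rho = 0.89), NOTCH1 and NOTCH3 (r = 0.87, rho = 0.85), NOTCH2 and JAG2 (r = 0.82, rho = 0.74) and NOTCH3 and JAG2 (r = 0.81, rho = 0.75). Without the 2 farthest libraries their r was 0.89, 0.72, 0.76 and 0.71, in that order, and the permutation adjusted p for rho was 0.099, 0.117, 0.136 and 0.117. JAG2 followed the length trend most closely, with r = 0.96 (permutation p = 0.000772, the smallest possible, adjusted p = 0.0371), rho = 0.97 (permutation p = 0.000772, adjusted p = 0.0424) and r = 0.95 without the 2 farthest libraries. NOTCH1 had r = 0.92 (permutation p = 0.0054, adjusted p = 0.0371), rho = 0.87 (permutation p = 0.0054, adjusted p = 0.099) and r = 0.85 without the 2 farthest. NOTCH2 had r = 0.88 (permutation p = 0.00309, adjusted p = 0.0371), rho = 0.82 (permutation p = 0.0224, adjusted p = 0.136) and r = 0.75 without the 2 farthest. NOTCH3 had r = 0.80 (permutation p = 0.0131, adjusted p = 0.0764) and rho = 0.81 (permutation p = 0.00926, adjusted p = 0.117). These genes have transcripts of 5835 to 11389 bases. HEY1, with 2296 bases, had r = -0.73 (permutation p = 0.054, adjusted p = 0.149) and rho = -0.71 (permutation p = 0.054, adjusted p = 0.198). JAG1, with a transcript of 5940 bases, had r = -0.09 (permutation p = 0.76, adjusted p = 0.89) and rho = -0.15 (permutation p = 0.652, adjusted p = 0.814), and HES1, with 1578 bases, had r = -0.71 (permutation p = 0.0293, adjusted p = 0.124) and rho = -0.69 (permutation p = 0.0316, adjusted p = 0.158). The GC content was 62.9% for NOTCH1, 64.0% for JAG2 and 49.4% for NOTCH2, and 49.6% for JAG1 and 49.9% for HES1. It was 63.1% for NOTCH3 and 47.3% for HEY1. The 3 long-transcript libraries also leaned most towards GC-rich transcripts. Per 10 points of GC content, log2 CPM rose by 0.137 in CT83 replicate 3, 0.0948 in HORMAD1 replicate 1 and 0.071 in control replicate 2. The other libraries had -0.124 to 0.0422, so a relation with length could not be told apart from one with GC content. NRARP had the highest GC content of the 10, 67.3%, and r = -0.36 (permutation adjusted p = 0.413) and rho = -0.35 (permutation adjusted p = 0.498) with the length trend. After the length and GC correction the within-line SD was 0.55 for NOTCH1, instead of 0.84, and 0.25 for JAG2, instead of 0.47, on the log2 scale, beside a median of 0.19 over all genes before it. It rose for JAG1, from 0.11 to 0.16, and for NRARP, from 0.28 to 0.30, and fell for the rest of the 10 genes.

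**Figure D4:**
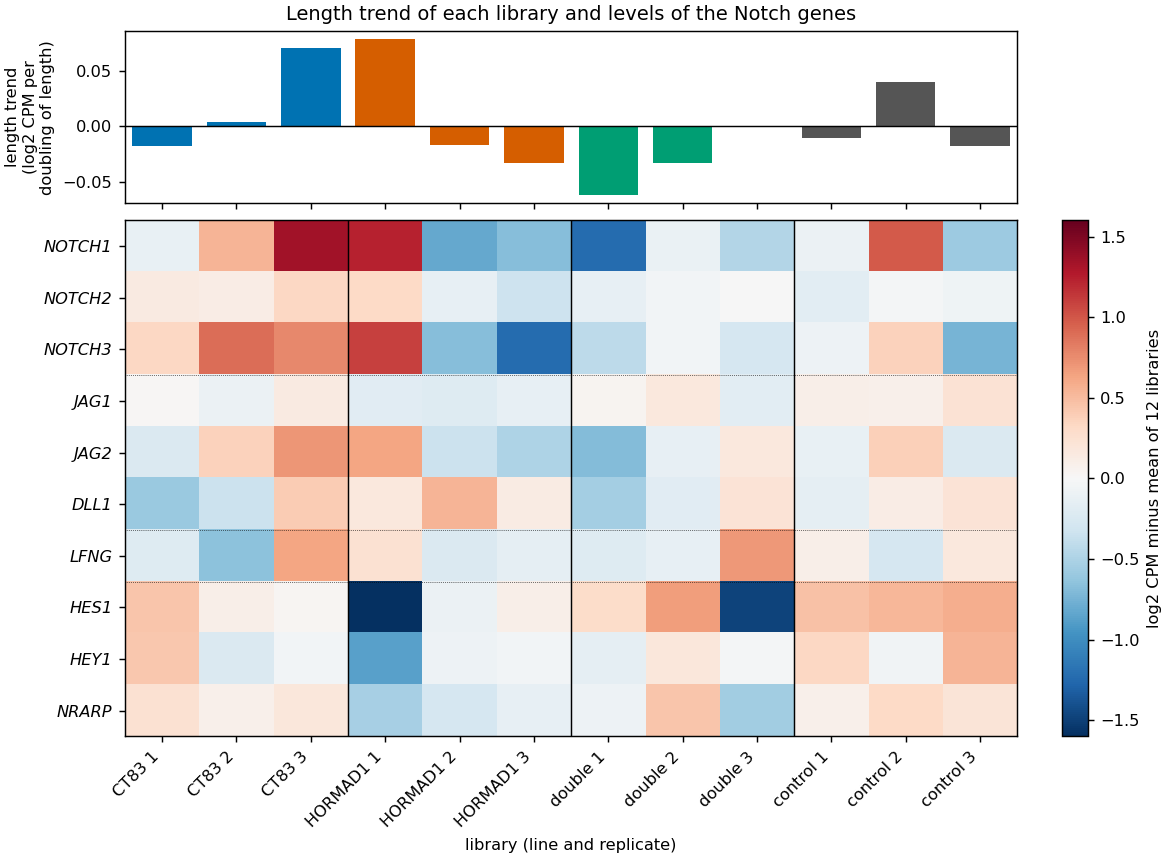
Upper panel, length trend of each library in log2 CPM per doubling of transcript length; lower panel, log2 CPM of each Notch gene minus its mean over the 12 libraries, with libraries in columns. NOTCH1 and JAG2 are high in the libraries with the steepest trend, CT83 replicate 3 (0.0705) and HORMAD1 replicate 1 (0.0788), and HES1 is low in HORMAD1 replicate 1 and double replicate 3.

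The genes closest in pattern to each Notch gene were found by the root mean square difference of centred log2 CPM over the 12 libraries. RHOV was closest to HES1, at 0.17, against a deviation of HES1 about its own mean of 0.73. TRIB1 was closest to NRARP, at 0.12, MSRA to JAG1, at 0.07, EML3 to NOTCH2, at 0.05, and KIAA1522 to JAG2, at 0.08. Among the Notch genes themselves NRARP was the nearest to HES1, at 0.47, and NRARP and JAG1 were nearest to each other, at 0.21. The deviation of JAG1 about its own mean was 0.14, less than that distance, and that of NRARP was 0.31. This distance also depends on how widely each gene varied, so it cannot decide whether the 2 share a pattern. Within lines, JAG1 and NRARP had r = 0.74 (permutation p = 0.0725, adjusted p = 0.173) and rho = 0.55 (permutation p = 0.135, adjusted p = 0.286). Without the 2 libraries farthest from the median of JAG1, r was 0.25. NOTCH3 was the nearest Notch gene to NOTCH1, at 0.42.

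In direct comparisons of the double line with the single lines, edgeR called 0 of the 10 Notch genes against the CT83 line, beside 0.0064% of all genes, and 0 against the HORMAD1 line, beside 0.0448%. DESeq2 and limma-voom called 0 of the 10 in both. At an unadjusted edgeR p under 0.05 there were 0 Notch genes in either, beside 8.05% of all genes against the CT83 line and 7.59% against the HORMAD1 line. No Notch gene lay higher without overlap against the CT83 line, beside 8.86% of all genes, and none separated from the HORMAD1 line, beside 6.29% higher and 5.91% lower. None separated from control in the double line either, beside 7.61% higher and 7.83% lower. The largest log2 differences were in the receptors, -1.25 (SE 0.70) for NOTCH1 against the CT83 line and -0.80 (SE 0.70) against the HORMAD1 line. These values rested on few libraries. Without the 3 long-transcript libraries the NOTCH1 difference was -0.79 (SE 0.36) against the CT83 line and turned to 0.22 (SE 0.40) against the HORMAD1 line, and without HORMAD1 replicate 1 alone the second was 0.21. NOTCH3 differed from the HORMAD1 line by -0.35 (SE 0.56) and turned to 0.71 (SE 0.27, edgeR adjusted p = 0.269) without the 3 libraries. After the length and GC correction NOTCH1 differed by -0.77 (SE 0.43) from the CT83 line and -0.44 (SE 0.43) from the HORMAD1 line. For JAG1 the difference from the HORMAD1 line was 0.20 (SE 0.09, edgeR adjusted p = 0.661). The test for any difference among the 4 lines called 0 of the 10 and 0.0448% of all genes, and JAG1 alone had an unadjusted edgeR p under 0.05 (adjusted p = 0.914), beside 4.83% of all genes.

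Of 51 genes of the wider pathway, Notch genes above included, 42 were tested and edgeR called 0 in any comparison. At an unadjusted edgeR p under 0.05, 1 was higher and 1 lower in the CT83 line, 0 higher and 3 lower in the HORMAD1 line and 0 higher and 1 lower in the double line, each against control, beside 2.74%, 1.82% and 5.56% of all genes in either direction. The 3 in the HORMAD1 line are the Notch genes already counted, and NOTCH2 is the 1 that was higher in the CT83 line. The median log2 fold changes of the list were 0.08, 0.04 and -0.13, beside 0.01, 0.01 and -0.00 over all genes. RBPJ, the DNA-binding partner of the receptor's intracellular domain, had 54.1 ± 0.584 CPM in the CT83 line and 62.9 ± 7.56 in control (log2 fold change -0.22, SE 0.10, edgeR adjusted p = 0.984). NUMBL, related to the Notch inhibitor NUMB, had 15.8 ± 1.74 CPM in the CT83 line and 12.1 ± 1.82 in control, without overlap (0.39, SE 0.19, edgeR adjusted p = 0.984). In that comparison 2 of the 42 tested genes lay higher without overlap, NOTCH2 and NUMBL, beside 4.73% of all genes, and 1 lay lower, HES1, beside 5.73%. POFUT1, which adds fucose to Notch receptors, had 72.7 ± 8.87 CPM in the double line and 85.3 ± 6.27 in control (-0.23, SE 0.10, edgeR adjusted p = 0.87). All SDs are over 3 libraries. The untested genes included NOTCH4 and DLL4, with at most 5 counts in a library, and HES5, HEYL and DLK1, listed at 0 in all 12. PSEN2 was also listed at 0 in all 12 and PSENEN in 9 of 12. Both encode parts of gamma-secretase, which most cells use, and how reads of overlapping genes were assigned is not given, so a listed 0 need not mean that a gene was off.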

How the data were processed

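Polyadenylated RNA was measured in 12 libraries. An RNeasy kit, ERCC spike-in RNA and a NEBNext Ultra library kit were used, per the labels' protocols. The submitters' processing notes name STAR 2.7.5c, Trimmomatic 0.39, SAMtools and Picard, and hg38 and hg19 are named without roles. How reads were counted, with which annotation and whether by strand is not given in the sources used here. Per gene and library, the authors deposited 1 expected count, an estimate that can hold a fraction, and 6.75% of the values were rounded. The design had assumed raw counts, and its test was kept on the rounded values. The files held 0 ERCC entries.

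In R 4.3.3, edgeR 4.0.16 filtered genes with filterByExpr at a minimum count of 10, scaled by TMM and fitted a robust quasi-likelihood model with 1 mean per line to all 12 libraries, with 8 residual degrees of freedom. P-values were Benjamini-Hochberg adjusted over 15616 genes within each of 9 comparisons. The SE of a log2 fold change was derived from edgeR's test, as its absolute value divided by the square root of the F statistic. CPM of a library is not corrected for transcript length; a prior count of 2 was added for log2 CPM. Lengths, GC content and coordinates came from GENCODE 29 (GRCh38), where 58312 gene identifiers matched. The fit was tested on simulated data. Alternatives were DESeq2 1.42.0, limma-voom (limma 3.58.1), other scalings and filters, a fit of only the lines compared, a replicate block, a correction for length and GC content with mgcv 1.9.3, and leaving out libraries. Replicates differed by more than sampling noise. The Notch genes and the wider list were chosen with earlier results of these data known. All 10 were named, and of the wider list, by a fixed rule, up to 3 others per comparison with control; those not named in the report are in the closing section, and some genes of the list are not reported here.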

Additional observations from a re-analysis of the deposited data

How the results depend on the processing

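The count of called Notch genes was 0 in all 9 comparisons under every alternative, except without the 3 long-transcript libraries, where it was 2 both for the lines with CT83 against those without and for any difference among the 4 lines (NOTCH2, log2 difference 0.20, and NOTCH3, 0.87, in the first). The number of all genes called was less stable. For the CT83 line against control (1 gene) it was 0 with no low-count filter and in a fit of only the groups compared, and 119 without the 3 long-transcript libraries. For the HORMAD1 line against control (1) it was 2 with DESeq2, 0 in a fit of only the groups compared and 6 without the 3 libraries. For the double line against control (4) it was 12 with no filter, 2 with limma-voom, 2 with the replicate block and 13 without the 3 libraries. For the double against the CT83 line (1) these were 0 with no filter, 3 with DESeq2, 2 with limma-voom, 2 with the block and 73 without the 3 libraries. For the double against the HORMAD1 line (7) these were 99 with no filter, 62 with DESeq2, 4 with limma-voom, 1 with only the groups compared, 1 with the block, 13 with the length and GC correction and 339 without the 3 libraries. The interaction (0) had 2 with no filter, 3 with DESeq2 and 22 without the 3 libraries. The lines with CT83 against those without (5) had 60 with no filter, 32 with DESeq2, 3 with the block, 9 with the length and GC correction and 761 without the 3 libraries, and the lines with HORMAD1 against those without (1) had 5 without the 3 libraries. Any difference among lines (7) had 2 with upper-quartile scaling, 59 with no filter, 21 with DESeq2, 2 with limma-voom, 2 with the block and 599 without the 3 libraries. Leaving out 1 library at a time gave 0 to 1 genes for the CT83 line against control, 1 to 2 for the HORMAD1 line, 1 to 5 for the double line, 1 to 2 for the double against the CT83 line, 0 to 39 for the double against the HORMAD1 line (39 without HORMAD1 replicate 1), 0 to 97 for CT83 (97 without HORMAD1 replicate 1, 0 without double replicate 3), 1 to 2 for HORMAD1 and 1 to 23 for any difference (23 without HORMAD1 replicate 1). The cause of these shifts was not tested. Same-numbered replicates did not deviate together as a rule, with correlations of -0.64 to 0.71 over 18 pairs, of which 6 exceeded 0.1. What the numbers share is not in the labels. With 3 libraries per line these values cannot decide whether the numbers pair samples.

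Fold changes that turned sign were uncalled. In the CT83 line against control, LFNG (0.0036) turned to -0.0027 with upper-quartile scaling, -0.10 with limma-voom, -0.049 with the replicate block, -0.094 with the length and GC correction and -0.56 without the 3 libraries, and NRARP to 0.019 without them. In the HORMAD1 line, NOTCH1 (0.01) turned to -0.020 with DESeq2, -0.091 with limma-voom, -0.074 with the correction and -0.44 without the 3 libraries, NOTCH3 to -0.024 with limma-voom and -0.57 without the 3, NOTCH2 to -0.11 without the 3 and JAG2 to 0.017 with the block. In the double line, NOTCH3 turned to 0.11 with the correction and 0.14 without the 3 libraries, and NOTCH2 against the CT83 line to 0.034 with the correction. Between the double and HORMAD1 lines, NOTCH3 turned to 0.025 with the correction and 0.71 without the 3 libraries, and NOTCH1 to 0.22 without the 3. Leaving out 1 library at a time, signs turned within these ranges: in the CT83 line DLL1 -0.56 to 0.0014, LFNG -0.44 to 0.26 and NRARP -0.095 to 0.032; in the HORMAD1 line JAG2 -0.45 to 0.21, LFNG -0.20 to 0.055, NOTCH1 -1.002 to 0.58, NOTCH2 -0.14 to 0.20 and NOTCH3 -0.86 to 0.57; in the double line LFNG -0.19 to 0.33, NOTCH2 -0.019 to 0.062 and NOTCH3 -0.40 to 0.14; between the double and HORMAD1 lines NOTCH1 -1.13 to 0.21 and NOTCH3 -0.72 to 0.71. Depth limits HEY1 most, with 18 to 42 counts per library; counting error is only part of its spread. Plain library totals moved no line mean of a Notch gene by more than 1 SD.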

Other observations

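Other genes of the wider Notch list that had the smallest p-values against control did not pass edgeR's test either. FBXW7, which marks the Notch intracellular domain for breakdown, had 17.5 ± 1.27 CPM in CT83 libraries, 17.0 ± 2.01 in HORMAD1 libraries and 14.7 ± 2.33 in control libraries (log2 fold changes 0.25, SE 0.17, and 0.21, SE 0.17). ADAM10, the protease of the first ligand-dependent cut, had 140.2 ± 6.79 CPM in HORMAD1 libraries, against 132 ± 7.75 CPM in control libraries (0.09, SE 0.07). In the double line, HES7, a repressor related to HES1, had 17.5 ± 2.86 CPM, against 20.5 ± 2.06 in control (-0.23, SE 0.13), and APH1A, a gamma-secretase subunit, had 205 ± 14.2 CPM, against 187 ± 7.22 in control (0.13, SE 0.09). APH1A was the 1 gene of the 42 tested that lay higher without overlap there, beside 7.61% of all genes. SDs are over 3 libraries.

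The corepressor SPEN, named after its values were seen, ranged over the 12 libraries from 4.61 to 71.3 CPM, the widest range relative to the lowest value among tested genes of the list with at least 10 CPM on average. The genes closest in pattern to the remaining Notch genes were MDC1-AS1 for NOTCH1 (root mean square difference 0.13), C22orf46P for NOTCH3 (0.23), PDLIM2 for DLL1 (0.12), MIR1915HG for LFNG (0.18) and NELFE for HEY1 (0.20).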
